A study of Mus musculus with 3 samples.

Results

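Laminin chains and nidogens were described in endothelial cells (ECs) of the adult mouse lung as 9 genes: *Lama3*, *Lama4*, *Lama5*, *Lamb1*, *Lamb2*, *Lamb3*, *Lamc1*, *Nid1* and *Nid2*. They were chosen by gene symbol from the 24346 genes of the deposited table, and all 9 had a row. The ECs came from wild type male C57BL/6J mice aged 6 to 8 weeks, which had been given an antibody to VE-cadherin into the circulation before the lungs were taken. They were sorted as CD31-positive cells with antibodies to CD45 and podoplanin in the same stain, and RNA was extracted without culture. The 3 libraries, S38, S44 and S52, are of this 1 condition, so no difference between conditions could be tested, and where nothing says that they came from separate mice their spread may be technical. Values are FPKM (fragments scaled to gene length and library size), which permit a comparison of levels between genes because they are per length.

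Laminins are heterotrimers of an alpha, a beta and a gamma chain, and they polymerise into a sheet on the cell surface that starts a basement membrane. Nidogens bridge this sheet to the network of type IV collagen by binding the gamma chain that *Lamc1* encodes. In the lung, ECs and alveolar epithelium share a fused basement membrane across which gas is exchanged, and both cell types secrete its parts. Trimers are named by the numbers of their chains: laminin 411 holds the products of *Lama4*, *Lamb1* and *Lamc1*, laminin 511 has *Lama5* in place of *Lama4*, and laminins 421 and 521 have *Lamb2* in place of *Lamb1*. The chains of *Lama3* and *Lamb3* are best known from the anchorage of epithelia.

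The sorted fraction carried endothelial transcripts at high levels, and genes of other lung cells differed between the libraries. All 10 endothelial markers were above 1 FPKM in every library, with medians of 378, 393 and 379 FPKM in S38, S44 and S52. Summed FPKM of the 6 alveolar type 2 markers were 3797 in S38, 3184 in S44 and 767 in S52, with all 6 lowest in S52, and the 4 platelet markers summed to 1692, 1345 and 37.96 FPKM. The 5 pan-epithelial markers summed to 67.4, 36.5 and 26.5 FPKM, and the 6 mural markers to 119.96, 62.0 and 118 FPKM. Of the mural sums *Acta2* gave 90.3, 46.7 and 79.7 FPKM. *Acta2* and *Myh11* were highest in S38, and *Pdgfrb*, *Cspg4*, *Rgs5* and *Notch3* in S52. The 5 fibroblast markers summed to 75.7, 57.6 and 44.2 FPKM, of which *Dcn* gave 47.4, 35.5 and 19.8 FPKM, and 3 of the 5 were lowest in S44 and 2 in S52. Of 5 basal epithelial markers none reached a mean of 1 FPKM, and *Trp63* and *Dsg3* were listed at 0 in all 3 libraries. In bulk RNA, fewer cells of a type and less RNA per cell cannot be told apart.

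Among the 9 genes, *Lamb2*, *Nid1* and *Lama5* stood highest, *Lamc1*, *Lama4* and *Lamb1* were intermediate, and *Lamb3*, *Nid2* and *Lama3* were near 1 FPKM. With detection set at a mean of 1 FPKM or more, 7 of the 9 genes were detected, beside 48.3% of all genes in the table. The 4 highest members were above 10 FPKM, and the median over the detected genes of the table was 11.2 FPKM. The windows at the start sites of the 3 highest members and of *Lamb1* are shown first, a choice made with the levels known. A relation of base composition to level was not tested. RefSeq windows of 300 bases (250 before and 50 after an annotated start, GRCm38.p6) were read for *Lama5*, *Lamb1*, *Lamb2*, *Lamb3* and *Nid1*. No window was available for *Lama4*, *Lamc1* and *Nid2*, and *Lama3* was left out of this reading. Only the part before any annotated exon is printed, and capitals mark GGGCGG or its complement CCGCCC, the GC box. The printed parts lie at chr9:108479612-108479735 (plus strand) for *Lamb2*, chr12:31265043-31265145 (plus strand) for *Lamb1*, chr2:180225905-180226109 (minus strand) for *Lama5* and chr13:13437352-13437550 (plus strand) for *Nid1*.
Lamb2: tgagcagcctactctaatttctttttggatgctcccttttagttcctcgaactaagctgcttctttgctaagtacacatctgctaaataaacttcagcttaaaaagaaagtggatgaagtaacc
Lamb1: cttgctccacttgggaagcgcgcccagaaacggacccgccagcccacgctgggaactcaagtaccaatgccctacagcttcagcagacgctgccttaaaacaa
Lama5: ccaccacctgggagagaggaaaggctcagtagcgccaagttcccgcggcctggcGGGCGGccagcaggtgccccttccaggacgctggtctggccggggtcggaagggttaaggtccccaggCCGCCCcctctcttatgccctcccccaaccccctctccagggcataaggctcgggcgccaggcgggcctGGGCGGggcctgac
Nid1: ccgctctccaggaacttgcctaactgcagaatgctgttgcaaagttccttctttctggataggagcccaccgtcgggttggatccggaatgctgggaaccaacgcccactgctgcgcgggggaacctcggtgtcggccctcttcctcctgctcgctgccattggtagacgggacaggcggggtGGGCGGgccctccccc

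The full window of *Lamb2*, the most abundant member, had no GC box, a GC content of 44% and a CpG ratio (observed over that from base content) of 0.276. In GENCODE M21 *Lamb2* starts at chr9:108479736, so the window after the printed part lies inside the annotated gene. That of *Lamb1* had 2 GC boxes, both after the printed part, with a GC content of 63.7% and a CpG ratio of 0.615. *Lama5* had 4 GC boxes and a CpG ratio of 0.607, and *Nid1* had 1 GC box and a CpG ratio of 0.640. Both *Lamb3* windows, not printed because they lie inside the annotated gene, had no GC box and CpG ratios of 0.0761 and 0.197. Over all 32851 RefSeq windows of this length, 35.7% held the GC box on either strand, the median GC content was 52.7% and the median CpG ratio was 0.384. TATAAA, on either strand, was in none of these member windows and in 13.6% of all windows. These are descriptions of letters, and binding at these sites was not measured here.

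**Figure D1:**
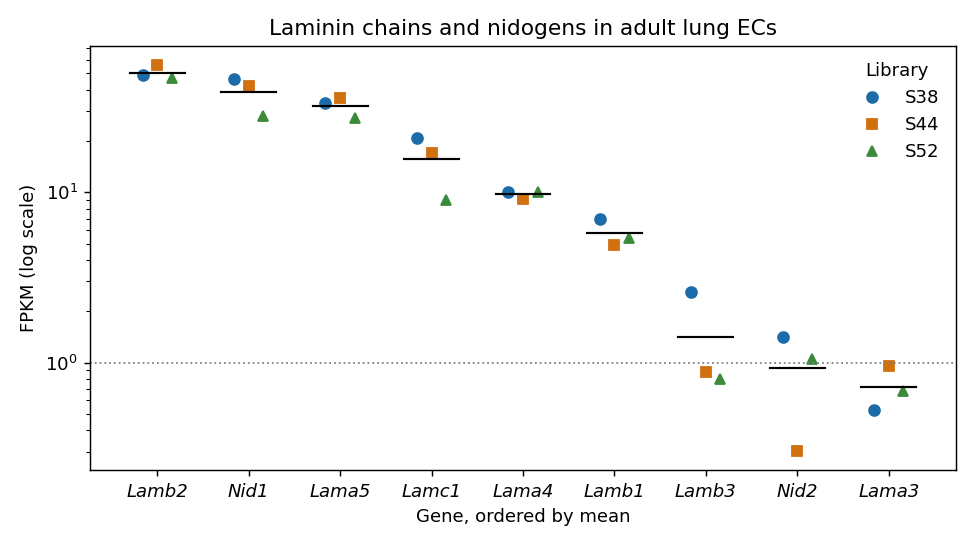
FPKM of the 9 genes (vertical axis, log scale) in libraries S38, S44 and S52, ordered by mean, where each point is 1 library, the bar is the mean of the 3 and the dotted line is 1 FPKM. *Lamb2*, with 46.9 to 55.8 FPKM, is above *Nid1* in every library, and *Lamb3*, *Nid2* and *Lama3* scatter around the dotted line.

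The alpha chains carry the sites by which a laminin trimer binds its cellular receptors. *Lama5* (GRCm38, chr2:180176373-180225859, minus strand, 79 exons) encodes the long alpha chain of laminins 511 and 521, found in most mature basement membranes. Its level was 33.4 (S38), 35.8 (S44) and 27.2 FPKM (S52), or 32.2 ± 4.41 FPKM (SD, n = 3). S52 was the lowest, and the highest library was 1.31-fold above it. *Lama4* (chr10:38965515-39110188, plus strand, 38 exons) encodes a shorter chain of laminins 411 and 421 that lacks the domain for self-assembly and is typical of ECs. Its level was 10.0 (S38), 9.19 (S44) and 10.0 FPKM (S52), or 9.75 ± 0.481 FPKM (SD, n = 3). On the deposited scaling *Lama4* had the narrowest range of the 9 genes, at 1.09-fold. It stayed the narrowest by the median ratio between libraries (1.13-fold) and with short noncoding genes left out of a common sum (1.12-fold). With each library rescaled to the same sum of all genes it spanned 1.51-fold, more than *Lamb2* at 1.27-fold and *Lama3* at 1.30-fold. *Lama5* was above *Lama4* in each library, by 3.34-fold in S38, 3.89-fold in S44 and 2.72-fold in S52, and their ranges did not overlap. An exact sign-flip permutation test over 3 libraries cannot give a two-sided p below 0.25, so such orders were not tested.

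*Lama3* (chr18:12333819-12583013, plus strand, 75 exons in its longest coding transcript) encodes an alpha chain that is typical of epithelia. Its level was 0.525 (S38), 0.950 (S44) and 0.684 FPKM (S52), under 1 FPKM throughout. S44 was highest, a different order from the pan-epithelial markers, which were highest in S38 for all 5. The remaining alpha chain genes, no members of the set, were also low: *Lama1*, a chain of embryonic basement membranes, had a mean of 1.60 FPKM and *Lama2*, the chain of muscle and nerve laminin, a mean of 1.89 FPKM. Of the summed FPKM of all 5 alpha chain genes, *Lama5* took 69.5% ± 3.62 and *Lama4* 21.3% ± 2.78 (SD, n = 3). *Lama3* took 1.56% ± 0.406 (SD, n = 3). Shares within a library do not depend on how the libraries are scaled.

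The beta chains were dominated by *Lamb2* even more than the alpha chains by *Lama5*. *Lamb2* (chr9:108479736-108490530, plus strand, 33 exons) encodes the beta chain of laminins 421 and 521, known for its need in the glomerular filter and at the neuromuscular junction. Its level was 48.6 (S38), 55.8 (S44) and 46.9 FPKM (S52), or 50.4 ± 4.73 FPKM (SD, n = 3), above 92.9% of all genes in the table. The libraries lay within 1.19-fold of each other. *Lamb1* (chr12:31265234-31329644, plus strand, 33 exons) encodes the beta chain of laminins 411 and 511, the widespread form in embryonic tissue. Its level was 7.01 (S38), 4.91 (S44) and 5.36 FPKM (S52), or 5.76 ± 1.104 FPKM (SD, n = 3). *Lamb2* was 6.93-fold, 11.4-fold and 8.75-fold above *Lamb1* in the same order, with no overlap of the ranges. Its share of the summed beta chain FPKM was 83.5% (S38), 90.6% (S44) and 88.4% (S52), against 12.05%, 7.97% and 10.1% for *Lamb1*.

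*Lamb3* (chr1:193207699-193343878, plus strand, 27 exons in its longest coding transcript) encodes a beta chain that is typical of epithelia. Its level was 2.58 (S38), 0.885 (S44) and 0.799 FPKM (S52), so that S38 stood 2.92-fold above the next library and S44 and S52 lay within 1.11-fold of each other. The mean of 1.42 FPKM passed the threshold only through S38, and without S38 it was 0.842 FPKM. Behind these values stand an estimated 462 (S38), 162 (S44) and 128 fragments (S52). The intervals from counting error alone (exact Poisson, 95%) ran from 2.35 to 2.83 FPKM in S38 and from 0.754 to 1.03 FPKM in S44. All 5 pan-epithelial markers were highest in S38 too, and the basal epithelial markers were near 0; their part in the *Lamb3* value was not tested. *Lama3*, the other epithelial chain gene of the set, did not share this order and was lowest in S38.

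*Lamc1* (chr1:153218922-153332786, minus strand, 28 exons) encodes the gamma chain that all laminins of the 411, 421, 511 and 521 forms have in common. Its level was 20.8 (S38), 17.1 (S44) and 9.06 FPKM (S52), or 15.7 ± 6.01 FPKM (SD, n = 3). S52 stood apart, 2.30-fold below S38 and 1.89-fold below S44, whereas S38 and S44 were within 1.22-fold. The estimated fragments were 5906, 4953 and 2296. *Lamc3*, another gamma chain gene, was at 4.50 (S38), 3.66 (S44) and 2.13 FPKM (S52), lowest in S52 like *Lamc1*.

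Summed by class, the alpha and beta chains kept nearly the same ratio in each library, and *Lamc1* did not keep its ratio to them. The beta sum was 1.24 times the alpha sum in S38, 1.24 times in S44 and 1.27 times in S52. *Lamc1* stood at 0.443 of the alpha sum in S38, at 0.345 of it in S44 and at 0.218 of it in S52. The alpha sums were 47.0, 49.6 and 41.7 FPKM and the beta sums 58.2, 61.6 and 53.1 FPKM in the same order. For laminin 521, the trimer of the highest alpha and beta chains, *Lamc1* was the lowest of the 3 transcripts in every library. For laminins 411 and 511 the lowest was *Lamb1* in every library, and for laminin 421 it was *Lama4* in S38 and S44 and *Lamc1* in S52. These are RNA levels, and protein and assembled trimers were not measured in these files.

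**Figure D2:**
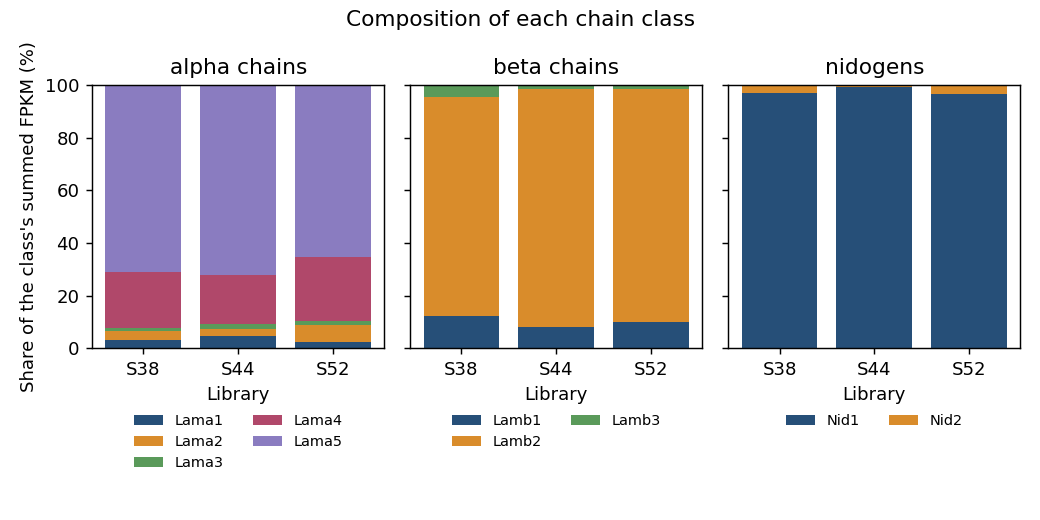
Share of the summed FPKM of each class (vertical axis, percent) taken by each alpha chain, beta chain and nidogen gene in S38, S44 and S52, with *Lama1* and *Lama2* drawn beside the members. *Lama5*, *Lamb2* and *Nid1* take the largest part of their class in all 3 libraries, from 65.4% for *Lama5* in S52 to 99.3% for *Nid1* in S44.

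The nidogens, both of which bind laminin and type IV collagen, were far apart in level. *Nid1* (chr13:13437551-13512269, plus strand, 20 exons) was at 46.1 (S38), 42.1 (S44) and 28.0 FPKM (S52), or 38.7 ± 9.47 FPKM (SD, n = 3). S52 was again the lowest, 1.64-fold below S38. *Nid2* (chr14:19751265-19811787, plus strand, 21 exons) was at 1.42 (S38), 0.303 (S44) and 1.05 FPKM (S52). S44 was the lowest, and the mean of 0.924 ± 0.569 FPKM (SD, n = 3) was below the threshold. *Nid1* was 32.5-fold above *Nid2* in S38, 139-fold in S44 and 26.7-fold in S52, and it took 97.6% ± 1.52 of the nidogen FPKM (SD, n = 3). An estimated 55 fragments support *Nid2* in S44, with a counting interval of 0.228 to 0.394 FPKM.

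The *Nid2* values carry a further limit. In GENCODE M21 its exons share 437 bases with *Rtraf*, a gene on the opposite strand, and the library kit did not keep the strand, so reads in those bases cannot be told apart. *Rtraf* was at 53.1 (S38), 47.9 (S44) and 57.5 FPKM (S52), lowest in S44 as *Nid2* was. The other members have no protein-coding gene over their exons. Antisense noncoding genes cover 197 bases of *Lama3* and 143 bases of *Nid1*. All 6 mural markers were lowest in S44 too, and the part of mural RNA in the *Nid2* values was not tested.

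Ordered by mean, the ranges of some neighbours were apart and those of others overlapped. *Lamb2* (lowest value 46.9 FPKM) lay above *Nid1* (highest value 46.1 FPKM) without overlap, *Lama5* above *Lamc1*, *Lama4* above *Lamb1*, and *Lamb1* above *Lamb3*. The counting intervals of these *Lamb2* and *Nid1* values overlapped, at 46.0 to 47.9 FPKM (*Lamb2*, S52) and 45.2 to 47.0 FPKM (*Nid1*, S38). With each library rescaled to the same sum, the ranges of *Lamb2* (down to 33.1) and *Nid1* (up to 39.9) overlapped. So did those of *Lama4* (down to 5.73) and *Lamb1* (up to 6.07), while the higher gene of each pair stayed the higher in all 3 libraries. By the median ratio, or with short noncoding genes left out of the sum, the ranges of neither pair overlapped. The ranges of *Nid1* and *Lama5* overlapped, although *Nid1* was higher in each library. Those of *Lamc1* and *Lama4* overlapped as well, with *Lama4* the higher in S52. *Lamb3*, *Nid2* and *Lama3* could not be ordered, since each adjoining pair changed order in 1 library.

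Between libraries, 3 of the 9 genes spanned more than 2-fold from the lowest library to the highest: *Nid2* (4.69-fold), *Lamb3* (3.23-fold) and *Lamc1* (2.30-fold). Of the 7 detected genes these were *Lamb3* and *Lamc1*, beside 20.1% of all 11770 detected genes. Above a mean of 10 FPKM, where *Lamc1* belongs, 8.74% had such a range, and among those of 1 to 10 FPKM, where *Lamb3* belongs, 33.0% had one. The median ratio of highest to lowest library was 1.43 over the 7 detected members and 1.40 over all detected genes. S52 was the lowest library for 5 of the 7 detected members (*Lama5*, *Lamb2*, *Lamb3*, *Lamc1* and *Nid1*), beside 46.3% of all detected genes, and the highest for 1 (*Lama4*), beside 33.9%. On the log2 scale S52 minus S38 was -1.20 for *Lamc1*, -0.72 for *Nid1* and -0.29 for *Lama5*, while the median over detected genes was -0.09. All alveolar type 2, airway, platelet and leukocyte markers were also lowest in S52, as were 4 of the 5 pan-epithelial markers. So were 3 of the 10 endothelial, 2 of the 5 fibroblast and 2 of the 6 alveolar type 1 markers. None of the 6 mural markers was lowest there. The part of any of these cell types in the *Lamc1* and *Nid1* values was not tested.

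Leaving out S52 took *Lamc1* to 1.22-fold and *Nid1* to 1.096-fold, leaving out S38 took *Lamb3* to 1.11-fold, and leaving out S44 took *Nid2* to 1.352-fold, so each of these ranges rested on 1 library. Without S52 the share of all detected genes over 2-fold was 5.06%. Rescaling each library to the same sum took *Nid1* to 2.02-fold and *Lamc1* to 2.83-fold. That rescaling shifts all genes in S52 against S38 by -0.30 on the log2 scale, and under it the lowest library of *Lamb3* was S44. With short noncoding genes left out of the sum the shift was -0.01, and *Nid1* spanned 1.66-fold and *Lamc1* 2.32-fold. The same-sum values thus rest on the summed FPKM of short noncoding genes. With scaling by the median ratio between libraries, the lowest library of *Lamb2* was S38, at 47.4 FPKM against 48.1 FPKM in S52. *Lama5*, *Lamc1* and *Nid1* were lowest in S52 under all 3 rescalings tried, and S52 minus S38 for *Lamc1* ranged from -1.50 to -1.13 on the log2 scale.

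**Figure D3:**
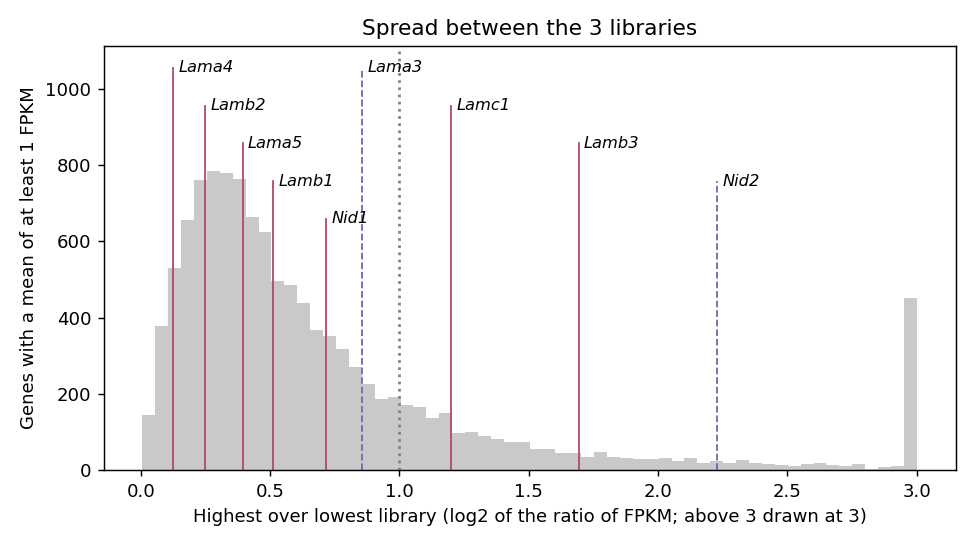
Histogram of the log2 ratio of the highest to the lowest library for all 11770 detected genes (grey; ratios above 3 on the log2 scale drawn at 3), with the 7 detected members as solid lines and *Lama3* and *Nid2*, which are not in the histogram, as dashed lines. The dotted line marks 2-fold; *Lamc1*, *Lamb3* and *Nid2* lie to its right, and *Lama4* at 1.09-fold lies at the left edge.

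The other components of the basement membrane were read from a list of 19 genes, of which 13 were detected, beside 48.3% of all genes. *Col4a1* and *Col4a2*, which form the common type IV collagen, measured 219, 228 and 170 FPKM and 121, 123 and 115 FPKM in the order S38, S44, S52. Type IV collagen chains *Col4a3* to *Col4a6*, those of specialised membranes such as the glomerular one, all had means below 1 FPKM. *Sparc*, a collagen-binding glycoprotein, was at 187 (S38), 225 (S44) and 282 FPKM (S52), or 231 ± 47.7 FPKM (SD, n = 3), and unlike *Lamc1* and *Nid1* it was highest in S52. It was below *Col4a1* in S38 and S44 and above it in S52. *Tinagl1* was at 178 ± 30.8 FPKM and *Pxdn*, the peroxidase that cross-links type IV collagen, at 92.7 ± 21.6 FPKM (SD, n = 3 for each).

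Proteoglycans of the membrane were unequal in level. *Agrn*, which encodes agrin, a ligand of laminin and dystroglycan, was at 28.3 (S38), 31.1 (S44) and 24.5 FPKM (S52). *Hspg2*, which encodes perlecan, was lower in each library, at 5.14, 3.59 and 3.57 FPKM. *Ntn4*, a netrin that binds laminin gamma chains, was at 51.5, 39.5 and 34.4 FPKM, lowest in S52 as *Lamc1* was. *Col4a1* stood at 6.54, 6.37 and 6.25 times the level of *Lama5* in the same order, a ratio chosen after the values were seen. Of the 13 detected genes 2 (*Fbln1* and *Col18a1*) had a library range over 2-fold, beside 20.1% of all detected genes.

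Several receptors of laminins stood higher than any laminin chain. Of 12 genes for receptors and associated proteins 10 were detected, beside 48.3% of all genes in the table. None of the 10 had a library range over 2-fold, beside 20.1% of all detected genes and 8.74% of those above 10 FPKM. The median of means over all 12 was 89.0 FPKM. *Itgb1*, the beta subunit of most laminin-binding integrins, was at 343 ± 16.9 FPKM, with its partners *Itga6* at 109 ± 18.2 FPKM and *Itga3* at 104 ± 27.2 FPKM (SD, n = 3 for each). *Bcam*, the Lutheran glycoprotein that binds the *Lama5* chain, had the highest mean of the list, with 360 (S38), 425 (S44) and 278 FPKM (S52), but in S52 it was below *Itgb1* at 363 FPKM and *Cd151* at 286 FPKM. *Mcam*, a receptor for the *Lama4* chain, was at 222, 253 and 262 FPKM. *Cd151*, the tetraspanin that associates with these integrins, was at 309 ± 36.0 FPKM (SD, n = 3). *Itgb4*, the integrin subunit of hemidesmosomes, was at 4.08 ± 0.694 FPKM and *Itga7*, the muscle subunit, at 0.718 ± 0.306 FPKM (SD, n = 3 for each). *Dag1*, which encodes dystroglycan, was at 30.6 ± 0.947 FPKM (SD, n = 3), and its intracellular partners differed, with *Utrn* (utrophin) at 25.2 FPKM and *Dmd* (dystrophin) at 0.546 FPKM on average.

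**Figure D4:**
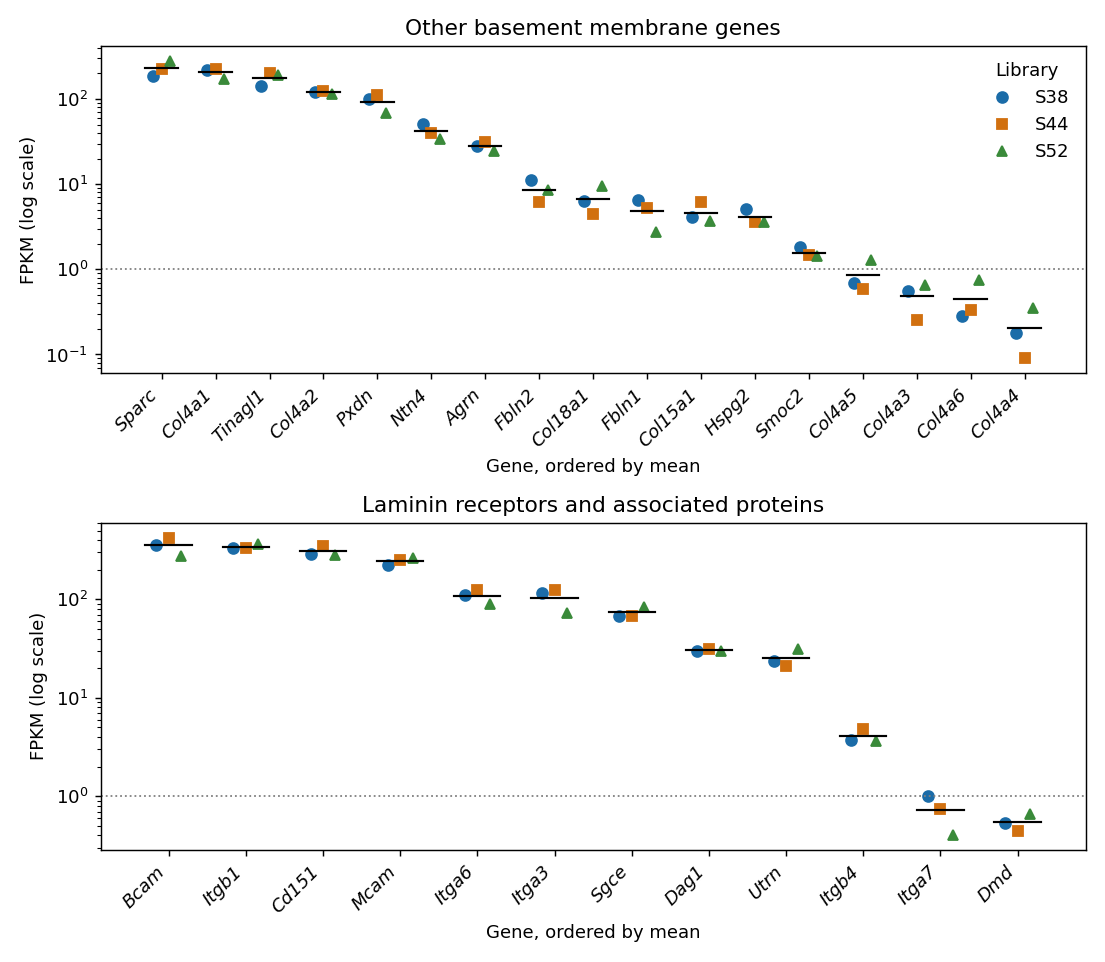
FPKM (log scale) of the other basement membrane genes (upper panel) and of laminin receptors and associated proteins (lower panel) in S38, S44 and S52, ordered by mean, with the mean as a bar and 1 FPKM as a dotted line. *Frem1* and *Fras1*, listed at 0 in at least 1 library, are not drawn. *Bcam*, *Itgb1*, *Cd151*, *Mcam*, *Itga6* and *Itga3* lie at 73.2 FPKM or more in every library, higher than any of the 9 genes.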

How the data were processed

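The authors deposited FPKM values for 24346 gene symbols on mm10 from poly-A selected, unstranded libraries read as pairs of 51 bp. The submitters' processing notes name Trimmomatic 0.36, TopHat2 2.1.0 and Cufflinks 2.2.1 without roles, whereas the study's methods describe STAR and HTSeq counts, so which tool made the table is not given in the sources used here. Nor is the gene annotation. All per-sample columns were used as deposited. The members, the lists and the alternatives were chosen with earlier results of these data known. The rule for named genes covered all members, the lists of laminin chains, membrane partners and receptors gene by gene, and the 3 genes nearest in profile to the highest alpha chain, beta chain and nidogen. Other lists (endothelial, arterial, venous, lymphatic, alveolar type 2 and type 1, airway, basal and pan-epithelial, mural, fibroblast, mesothelial, platelet and leukocyte) were counted. A few genes that the rule covers are not reported here. FPKM are not counts, so no count model was fitted, and with 1 condition no test was made. Depth was estimated from 7077 genes with 1 annotated transcript of 800 to 4000 bases, by the step that makes low values whole fragments: 38000000 (S38), 38800000 (S44) and 33900000 (S52), with 74.9 to 78.4% of low values within 0.15 of a whole number. Fragments per gene use the longest coding transcript of GENCODE M21 (GRCm38), and intervals cover counting error only. The method was tried on simulated whole-fragment counts that follow its own assumption, so that trial does not give its error in these data. Python 3.11.15, pandas 2.3.3 and scipy 1.17.1 were used.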

Additional observations from a re-analysis of the deposited data

How the results depend on the processing

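In all, 22 results were recomputed under 14 alternatives. Of 159 values, 132 stayed within 1 SD over libraries, or within 1.5 times for counts (log2 differences within 0.5). Some of these could not move: class shares are fixed under any rescaling, and S52 minus S38 is fixed when S44 is left out. A change of sign was possible only for the log2 differences of *Lamc1* and *Nid1* (S52 minus S38), which stayed negative. The other results are levels, counts or percents, which cannot be negative. Levels follow the scaling: the median over the 9 members, 9.75 FPKM, was 7.16 with each library rescaled to a sum of 1000000 and 20.7 when short noncoding genes were left out of that sum. It was 9.60 to 10.0 FPKM when a library was left out. The number of members detected was 4 at a threshold of 10 FPKM, and 6 to 8 when a library was left out. The number of other pathway genes detected, 26, was 16 at 10 FPKM. Counted over all 9 members, detected or not, the number over 2-fold between libraries was 1 with a pseudocount of 1 FPKM. It was 1 to 2 when a library was left out, and 4 with each library rescaled to the same sum. Among detected genes alone, the shares over 2-fold were 12.7%, 5.06 to 14.8% and 25.8% in the same order. These counts and shares cover unlike sets, since the members were not filtered by level. The shares of *Lama5*, *Lamb2* and *Nid1* in their classes do not depend on scaling, and moved to 68.2 to 71.6%, 86.0 to 89.5% and 96.7 to 98.1% when a library was left out. With no filter on low values, 42.1% of the genes above 0 in at least 1 library were over 2-fold. No paired analysis was possible because the series part held here has 1 group. Neither an order of genes nor a library that stands apart was tested.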

Other observations

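Markers of vessel types within the endothelium were read beside the members. The 6 arterial markers were all detected, with a median of 40.3 FPKM. Of the 5 venous markers 4 were detected, and the median over all 5 was 44.3 FPKM. Of the 5 lymphatic markers 4 were detected, and *Prox1*, which specifies lymphatic ECs, was below 1 FPKM in each library. The airway markers summed to 2780 (S38), 2316 (S44) and 401 FPKM (S52). Leukocyte markers summed to 1074, 807 and 169 FPKM in the same order, of which *Lyz2* gave 1047, 780 and 166 FPKM. *Ptprc* of the same list was at 4.30, 2.06 and 0.434 FPKM. The 6 alveolar type 1 markers summed to 351, 376 and 278 FPKM, of which *Hopx* gave 294, 332 and 201 FPKM, and 4 of the 6 were lowest in S44 and highest in S52. The 4 mesothelial markers, with 1 detected, were listed at 0 in S52.

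Profiles near to those of the highest members were sought among the 6268 other genes averaging 10 FPKM or more, by the distance of log2(FPKM + 1) centred over the 3 libraries. The nearest to *Lama5* were *Limd2*, *Ndufv2* and *Fam188a*, those to *Lamb2* were *Alg14*, *Tmem43* and *Hnrnpa0*, and those to *Nid1* were *Pex6*, *Ttc4* and *Myh9*, at distances of 0.00337 to 0.0144. Within a distance of 0.1 lay 382 genes for *Lama5*, 413 for *Lamb2* and 122 for *Nid1*, so 3 libraries leave many genes with a like profile.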
